A study of Mus musculus with 12 samples.

Results

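Genes of heme breakdown and iron handling were followed in mouse embryonic fibroblasts, chosen by gene symbol. They are Hmox1, Blvra, Blvrb, Fth1, Ftl1, Slc40a1, Tfrc, Slc11a2, Fech and Abcb6, 10 of the 20844 genes listed in both deposited tables. RNA was sequenced from fibroblasts of embryos at embryonic day 13.5 to 14.5, collected 4 days after infection with adenovirus at a multiplicity of 500 and grown in pyruvate-free DMEM with 10% serum. All cells were homozygous for an inducible allele, LSL-Nrf2D29H or CA-Keap1R554Q, and each of 4 groups had 3 libraries. Nrf2 (gene symbol Nfe2l2) is a transcription factor that turns on antioxidant and detoxification genes, and Keap1 is the adaptor protein that marks it for degradation. Nrf2 D29H cells received adenoviral Cre, the recombinase that switches the mutant allele on. Their controls received empty adenovirus, which leaves the Nrf2 allele silenced, and are labelled Nrf2 knockout. Keap1 R554Q cells likewise received adenoviral Cre, and their controls received empty adenovirus and act as Keap1 wild type. Wild-type cells given Cre were not among the groups, so Cre and the mutant allele cannot be told apart in either comparison. The labels do not say whether replicates came from separate embryos or cultures, so p-values measure the spread between these samples, which may be technical.

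Heme oxygenase opens the heme ring and releases iron, carbon monoxide and biliverdin, which biliverdin reductases turn into bilirubin. The freed iron is stored in ferritin, a shell of heavy and light chains, or leaves the cell through ferroportin, while the transferrin receptor brings iron in and ferrochelatase puts iron into new heme. Iron regulatory proteins bind hairpins in the messenger RNAs of several of these genes, blocking translation from a hairpin in a 5′ UTR and stabilising the RNA from hairpins in a 3′ UTR, and Nrf2 is a known activator of heme oxygenase and ferritin genes.

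The hairpins are shown because their place in the transcript differed between the ferritin chains and the transferrin receptor. Whether they bear on the RNA changes was not tested. They were found in GENCODE M21 protein-coding transcripts (GRCm38) as a 6-base loop closed by 5 base pairs with an unpaired C before the stem. The loop had to be CAGTG followed by A, C or T, and hairpins outside this pattern were not counted. The search covered Abcb6, Blvra, Blvrb, Fth1, Ftl1 and Tfrc. Capitals mark the loop and the 30 bases run 5′ to 3′ on the gene's strand. The 5′ UTR of Fth1 (chr19:9982732-9982761, plus strand) and that of Ftl1 (chr7:45459778-45459807, minus strand) each held 1 hairpin. The 3′ UTR of Tfrc on the plus strand held 4, at chr16:32631219-32631248, chr16:32631598-32631627, chr16:32631663-32631692 and chr16:32631710-32631739, in the order below.
Fth1: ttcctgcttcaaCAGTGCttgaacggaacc
Ftl1: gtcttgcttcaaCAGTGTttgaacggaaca
Tfrc, the first: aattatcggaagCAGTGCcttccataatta
Tfrc, the second: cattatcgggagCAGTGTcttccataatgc
Tfrc, the third: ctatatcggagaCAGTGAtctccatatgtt
Tfrc, the fourth: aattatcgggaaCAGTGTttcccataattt
A match is a description of the sequence and not evidence of binding in these cells.

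Read totals ran from 14963004 to 23818477 per library. Nqo1, a standard Nrf2 target, was at 7.65 to 10.8 CPM in labelled knockout, 108.1 to 133.7 in D29H, 33 to 33.4 in wild type and 305.5 to 378.1 in R554Q, where CPM are counts adjusted for library size with TMM factors over all 12 libraries. Nfe2l2 reads were present in the libraries labelled knockout, at 40.2 to 46.5 CPM, against 49.6 to 57.1 CPM in D29H and 41.7 to 44.2 CPM in wild type. The log2 fold change of D29H over labelled knockout was 0.31 (adjusted p 0.0713, edgeR). That of labelled knockout over wild type was -0.0092 (adjusted p 0.965, edgeR). Reads summed per gene cannot tell whether an allele is silenced, so the group is called labelled knockout. All 12 fibroblast markers had reads in every group. Erythroid markers, including globin genes, summed to 0.261 to 1.25 CPM, here scaled within the 6 libraries of a line, and Hbb-y and Slc4a1 were listed in neither table. Macrophage markers had reads in all groups, and 13 of them summed to 165.7 to 206.4 CPM in labelled knockout, 190 to 214.9 in D29H, 112.9 to 124.7 in wild type and 83.9 to 98.9 in R554Q.

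Of the 10 genes, 9 passed the filter on low counts, and edgeR's quasi-likelihood test was run over all genes tested. In D29H against labelled knockout, 5 of the 9 were higher (Hmox1, Blvrb, Fth1, Ftl1, Slc40a1) and 1 was lower (Tfrc), where 3.47% of 14370 genes were called higher and 1.28% lower. The same 5 were higher in R554Q against wild type and 0 were lower in edgeR, DESeq2 and limma alike, where edgeR called 3.77% of 14128 genes higher and 2.4% lower. At an unadjusted p under 0.05 in edgeR, 1 of the 9 (Tfrc) was lower in R554Q, as were 11.4% of all genes tested. With CPM scaled within the 6 libraries of a line, the libraries with and without Cre did not overlap for those 6 genes in the Nrf2 line, where 12.4% of genes separated upward and 13% downward. In the Keap1 line they did not overlap, upward, for the 5 and for Fech, where 14% separated upward and 13.5% downward. Blvra overlapped in the Keap1 line on that scale and separated downward on the 12-library scale, where its highest R554Q library was at 24.46 CPM and its lowest wild-type one at 24.6; the other 9 genes gave the same overlap on both scales. The 9 genes had a median log2 fold change of 0.72 in the Nrf2 line and 0.67 in the Keap1 line, against 4e-04 and -0.001 over all genes tested. These are bulk RNA levels, in which fewer cells of a type and less RNA per cell cannot be told apart.

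**Figure D1:**
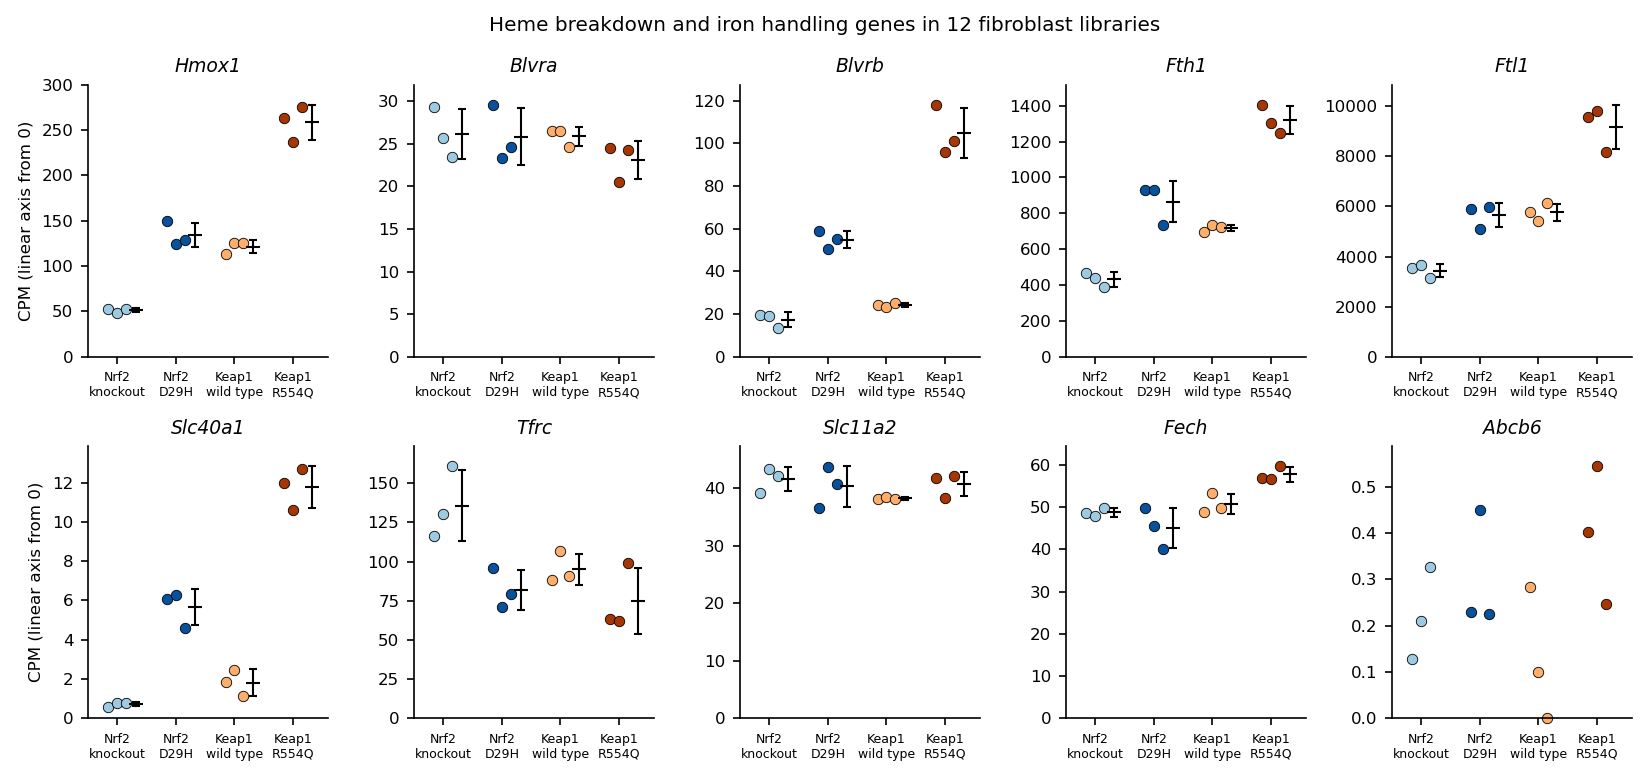
CPM of each gene in each of the 12 libraries, with a linear axis from 0 in every panel; points are libraries, and the bar beside each group is the mean with SD (n = 3), not drawn for Abcb6 because of its low counts. Hmox1, Blvrb, Fth1, Ftl1 and Slc40a1 are higher with Cre than with empty virus in all libraries of both lines, Tfrc is lower with Cre in the Nrf2 line, Slc11a2 overlaps between the groups of each line, and Blvra overlaps in the Nrf2 line and nearly touches in the Keap1 line.

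At the entry step of heme breakdown, Hmox1 rose in both lines. Hmox1, the inducible heme oxygenase (ENSMUSG00000005413, chromosome 8, 75093591 to 75100596, plus strand, GRCm38), was at 52.4, 48.7 and 52.5 CPM in labelled knockout and 149.4, 124.7 and 129 CPM in D29H. In the Keap1 line it was at 113.3, 125.9 and 125.1 CPM in wild type and 263.8, 237.4 and 275 CPM in R554Q. Every library with Cre was above every library with empty virus of its line, and the D29H libraries overlapped the wild-type ones. Hmox1 was 2.62-fold higher in D29H (log2 fold change 1.39, SE 0.10, adjusted p 1.53e-09, edgeR) and 2.14-fold higher in R554Q (1.10, SE 0.08, adjusted p 1.11e-07). Hmox2, the constitutive heme oxygenase, was not called in either line, with log2 fold changes of -0.26 (adjusted p 0.172, edgeR) and -0.20 (adjusted p 0.185).

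Of the biliverdin reductases, Blvrb rose in both lines and Blvra was called in neither. Blvrb, biliverdin reductase B, which also reduces flavins (ENSMUSG00000040466, chromosome 7, 27447978 to 27466144, plus strand), was at 19.8, 19.1 and 13.4 CPM in labelled knockout and 58.8, 50.6 and 55.4 CPM in D29H. It was at 24.5, 23.4 and 25.1 CPM in wild type and 118.2, 95.8 and 101 CPM in R554Q. The 4 groups did not overlap and ran upward in the order labelled knockout, wild type, D29H, R554Q. Blvrb rose 3.12-fold in D29H (log2 fold change 1.64, SE 0.12, adjusted p 1.53e-09, edgeR) and 4.34-fold in R554Q (2.12, SE 0.09, adjusted p 4.54e-11). Blvra, biliverdin reductase A, the main reductase of the biliverdin that heme oxygenase makes (ENSMUSG00000001999, chromosome 2, 127070665 to 127097084, plus strand), lay between 20.5 and 29.6 CPM in all 12 libraries. Its groups overlapped in the Nrf2 line, and in the Keap1 line the R554Q libraries ended just below the wild-type ones. Its log2 fold changes were -0.02 (95% confidence interval -0.27 to 0.22, adjusted p 0.922, edgeR) and -0.16 (-0.37 to 0.05, adjusted p 0.351).

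Within each library the relation of the reductases changed. The ratio of Blvrb to Blvra in FPKM, the authors' per-length measure, was 0.962, 1.05 and 0.811 in labelled knockout and 2.83, 3.08 and 3.2 in D29H. It was 1.31, 1.25 and 1.45 in wild type and 6.87, 6.62 and 5.89 in R554Q. Blvra and Blvrb thus had similar per-length levels in labelled knockout, and Blvrb was the more abundant in every library of the other 3 groups.

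Promoter windows of the reductases are shown because 1 gene rose and the other was not called. They are RefSeq sequences (GRCm38.p6) of 250 bases before and 50 after the transcription start, used for 6 of the 10 genes. No window was used for Hmox1, Slc40a1, Slc11a2 or Fech. Both strands were searched for TGANNNNGC, the core of the antioxidant response element that Nrf2 binds, which 41.3% of 32851 promoters of that length hold. Capitals mark the match, on the minus strand relative to the gene in both. The windows are chr7:27447728-27448027 for the first start of Blvrb and chr2:127070407-127070706 for Blvra, both plus strand.
Blvrb: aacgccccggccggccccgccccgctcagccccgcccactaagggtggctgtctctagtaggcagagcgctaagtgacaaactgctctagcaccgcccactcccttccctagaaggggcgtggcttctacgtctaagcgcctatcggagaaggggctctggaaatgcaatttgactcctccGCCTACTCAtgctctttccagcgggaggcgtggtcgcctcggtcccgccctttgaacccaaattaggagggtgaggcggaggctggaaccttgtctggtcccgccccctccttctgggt
Blvra: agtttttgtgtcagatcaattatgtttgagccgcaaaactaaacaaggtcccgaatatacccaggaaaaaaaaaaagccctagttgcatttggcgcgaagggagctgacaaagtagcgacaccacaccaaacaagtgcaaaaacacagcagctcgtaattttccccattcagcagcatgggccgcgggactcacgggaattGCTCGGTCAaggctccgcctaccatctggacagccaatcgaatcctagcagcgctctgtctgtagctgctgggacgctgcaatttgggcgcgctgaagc
Read on the minus strand the matches are TGAGTAGGC in Blvrb and TGACCGAGC in Blvra, 69 to 61 and 49 to 41 bases before the start. A second RefSeq start of Blvrb had 2 matches, and the windows of Fth1, Ftl1, Tfrc and Abcb6 had none. The match is a description, since the gene that rose and the gene that was not called both hold one.

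Both ferritin chains rose in both lines. Fth1, the heavy chain that oxidises iron for storage (ENSMUSG00000024661, chromosome 19, 9982703 to 9985092, plus strand), was at 469.2, 437.1 and 388.3 CPM in labelled knockout and 927.8, 932.6 and 733 CPM in D29H. It was at 697.4, 735.1 and 721.3 CPM in wild type and 1405.7, 1302.2 and 1249.8 CPM in R554Q. All libraries with Cre were above those with empty virus of the same line, and the lowest D29H library lay within the wild-type range. Fth1 was 2-fold higher in D29H (log2 fold change 1.00, SE 0.13, adjusted p 2.04e-05, edgeR) and 1.85-fold higher in R554Q (0.88, SE 0.08, adjusted p 1.96e-06).

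Ftl1, the light chain that helps the iron core form (ENSMUSG00000050708, chromosome 7, 45457944 to 45459884, minus strand), was at 3526.8, 3642.7 and 3131.2 CPM in labelled knockout and 5883.2, 5103.3 and 5959.3 CPM in D29H. In the Keap1 line it was at 5763.3, 5428.5 and 6114.9 CPM in wild type and 9545.9, 9802.5 and 8151.3 CPM in R554Q. The groups of each line did not overlap, while the D29H libraries overlapped the wild-type ones. Ftl1 rose 1.64-fold in D29H (log2 fold change 0.72, SE 0.14, adjusted p 0.00425, edgeR) and 1.60-fold in R554Q (0.67, SE 0.10, adjusted p 0.000498). The call in D29H was lost without D29H replicate 3 (0.68, adjusted p 0.0713), a library in which Fth1 was the lowest of its group and Ftl1 the highest.

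Ftl1 was among the most abundant RNAs per length in every library. By FPKM it ranked first in all D29H and R554Q libraries, first or second in wild type, and between the fourth and sixth places in labelled knockout. It took 0.32% to 0.365% of all reads in labelled knockout, 0.535% to 0.617% in D29H, 0.525% to 0.58% in wild type and 0.806% to 0.98% in R554Q. The FPKM ratio of Ftl1 to Fth1 was 6.72, 7.46 and 7.21 in labelled knockout, 5.67, 4.9 and 7.27 in D29H, 7.39, 6.61 and 7.58 in wild type, and 6.08, 6.73 and 5.83 in R554Q. These ratios overlapped between the groups of each line. Ferritin has processed copies elsewhere in the genome, and Ftl2, a listed gene of the light-chain family, had 11 to 47 reads per library; how reads shared with such copies, or with the opposite-strand gene Gm10252 over 26.5% of the exonic bases of Ftl1, were counted is not given in the sources used here.

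**Figure D2:**
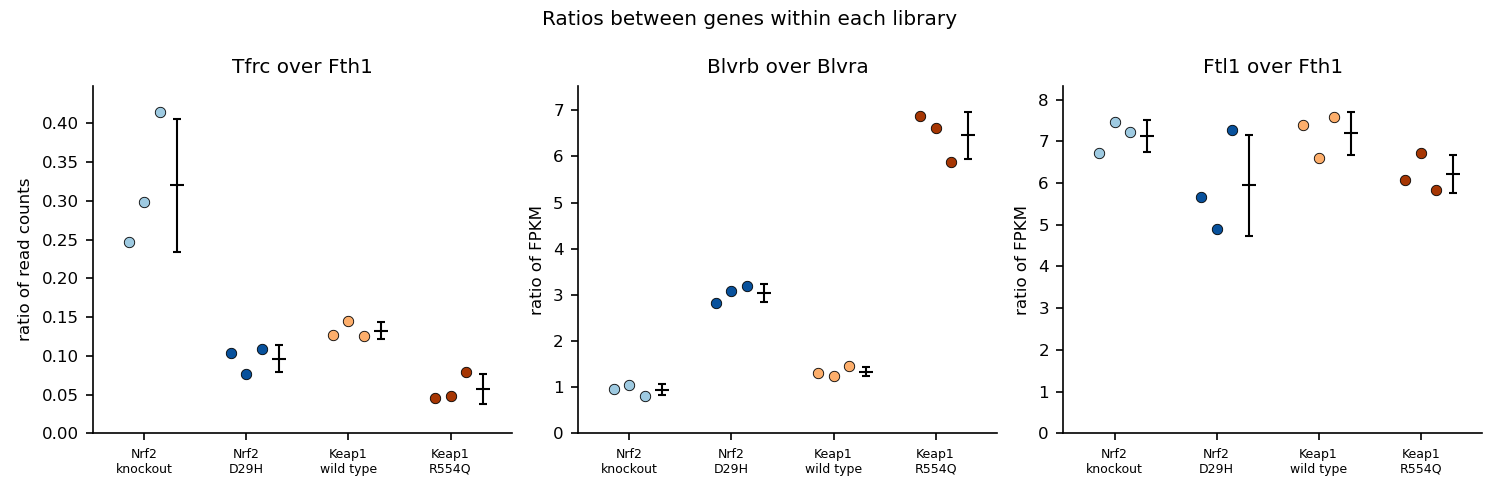
Ratio of Tfrc to Fth1 in read counts, and of Blvrb to Blvra and Ftl1 to Fth1 in FPKM, in each library, with linear axes from 0; points are libraries and bars the mean with SD (n = 3). Cre libraries lie below their controls for Tfrc over Fth1 and above them for Blvrb over Blvra in both lines, while Ftl1 over Fth1 overlaps.

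Slc40a1, ferroportin, the known iron exporter of animal cells (ENSMUSG00000025993, chromosome 1, 45908068 to 45926523, minus strand), had the largest change of the 10 genes. It was at 0.601, 0.755 and 0.785 CPM in labelled knockout, from 14, 18 and 12 reads, and at 6.09, 6.29 and 4.61 CPM in D29H, from 133, 140 and 102 reads. In the Keap1 line it was at 1.85, 2.48 and 1.13 CPM in wild type, from 39, 49 and 21 reads, and at 12, 10.6 and 12.7 CPM in R554Q, from 240, 233 and 257 reads. The 4 groups did not overlap and followed the same order as Blvrb. Slc40a1 was 7.95-fold higher in D29H (log2 fold change 2.99, SE 0.25, adjusted p 1.02e-08, edgeR) and 6.44-fold higher in R554Q (2.69, SE 0.20, adjusted p 7.11e-08). By size of the log2 fold change this was the sixth of 14370 genes in the Nrf2 line and the ninth of 14128 in the Keap1 line. Its level stayed low per length, at 2.97 ± 0.26 FPKM in R554Q (SD, n = 3) against 9400.9 ± 948.2 FPKM for Ftl1. Macrophages are known to express ferroportin. Of 14 macrophage markers 13 had a read in every group, and Vsig4 was listed only in the table of the Keap1 line, with 0 reads in R554Q. The summed levels of the 13, given above, overlapped between D29H and labelled knockout and were lower in R554Q than in wild type. The part of macrophage RNA in the Slc40a1 values was not tested.

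On the uptake side, Tfrc fell in the Nrf2 line. Tfrc, the transferrin receptor (ENSMUSG00000022797, chromosome 16, 32608920 to 32632794, plus strand), was at 116.1, 130.3 and 160.9 CPM in labelled knockout and 96, 70.9 and 79.6 CPM in D29H, and these groups did not overlap. It fell to 0.605 of the labelled-knockout level (log2 fold change -0.73, SE 0.12, adjusted p 0.00137, edgeR). Tfrc was at 88.3, 106.6 and 90.8 CPM in wild type and 63.3, 62.3 and 99.3 CPM in R554Q. R554Q replicate 3 lay within the wild-type range and the other R554Q libraries below it. The log2 fold change of -0.34 (95% confidence interval -0.63 to -0.05) was not past the threshold (adjusted p 0.136, edgeR). It was past it without R554Q replicate 3 (-0.59, adjusted p 2.97e-06) and in the unfiltered fit (-0.35, adjusted p 0.0048).

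Proliferation genes are given beside Tfrc. Of 20 such genes 6 were called lower in D29H, against 1.28% of all genes tested, with a list median of -0.32 (edgeR). In R554Q 2 were called lower, against 2.4% of all genes, with a list median of -0.08. Their summed level was 1963.4, 2019.2 and 2247.8 CPM in labelled knockout, 1795.1, 1641.2 and 1653.5 in D29H, 1321.8, 1409 and 1360.4 in wild type, and 1250.6, 1197.7 and 1375.9 in R554Q. The library with the highest Tfrc in each of the 4 groups was also the one with the highest sum. Across the lines the order differed, since the sums of D29H were all above those of wild type and the Tfrc levels of these groups overlapped. The part of proliferation in the Tfrc values was not tested.

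The ratio of Tfrc to Fth1 reads compares the RNA of these genes within each library, and not iron uptake with storage. It was 0.247, 0.298 and 0.415 in labelled knockout and 0.104, 0.076 and 0.109 in D29H. It was 0.127, 0.145 and 0.126 in wild type and 0.0451, 0.0479 and 0.0794 in R554Q. All Cre libraries were below their controls, and since Fth1 rose in both lines a lower ratio does not need a fall of Tfrc. In R554Q replicate 3 Tfrc, at 99.3 CPM, lay within the wild-type range. Its Fth1 was at 1249.8 CPM against 697.4 to 735.1 CPM in wild type, so its lower ratio reflects Fth1.

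Slc11a2, the divalent metal transporter that carries iron out of endosomes (ENSMUSG00000023030, chromosome 15, 100387898 to 100425072, minus strand), was not called in either line. It lay between 36.6 and 43.6 CPM in all 12 libraries, and its groups overlapped in both lines. Its log2 fold changes were -0.04 (95% confidence interval -0.25 to 0.17, adjusted p 0.833, edgeR) and 0.10 (-0.08 to 0.27, adjusted p 0.505). The opposite-strand gene Gm5475, which shares 6.33% of its exonic bases, had 0 to 10 reads per library.

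Fech, ferrochelatase, the last enzyme of heme synthesis (ENSMUSG00000024588), was at 48.5, 47.9 and 49.8 CPM in labelled knockout and 49.7, 45.5 and 40.2 CPM in D29H. It was at 48.8, 53.4 and 49.9 CPM in wild type and 56.8, 56.7 and 59.7 CPM in R554Q. The R554Q libraries were all above the wild-type ones, while the groups of the Nrf2 line overlapped. Neither line passed the threshold, with log2 fold changes of -0.11 (adjusted p 0.531, edgeR) and 0.19 (95% confidence interval 0.02 to 0.36, adjusted p 0.148).

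Abcb6, a porphyrin transporter of the ABC family (ENSMUSG00000026198, chromosome 1, 75171717 to 75180392, minus strand), did not pass the filter on low counts. Its reads were 3, 5 and 5 in labelled knockout, 5, 10 and 5 in D29H, 6, 2 and 0 in wild type, and 8, 12 and 5 in R554Q. All groups overlapped, and with so few reads a difference may be missed. In the unfiltered fit its log2 fold changes were 0.48 in D29H (adjusted p 0.747, edgeR) and 1.54 in R554Q (adjusted p 0.218). In GENCODE M21 the same-strand transcript Gm29253 covers 55.2% of the exonic bases of Abcb6, so reads shared with it leave the level of Abcb6 uncertain.

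**Figure D3:**
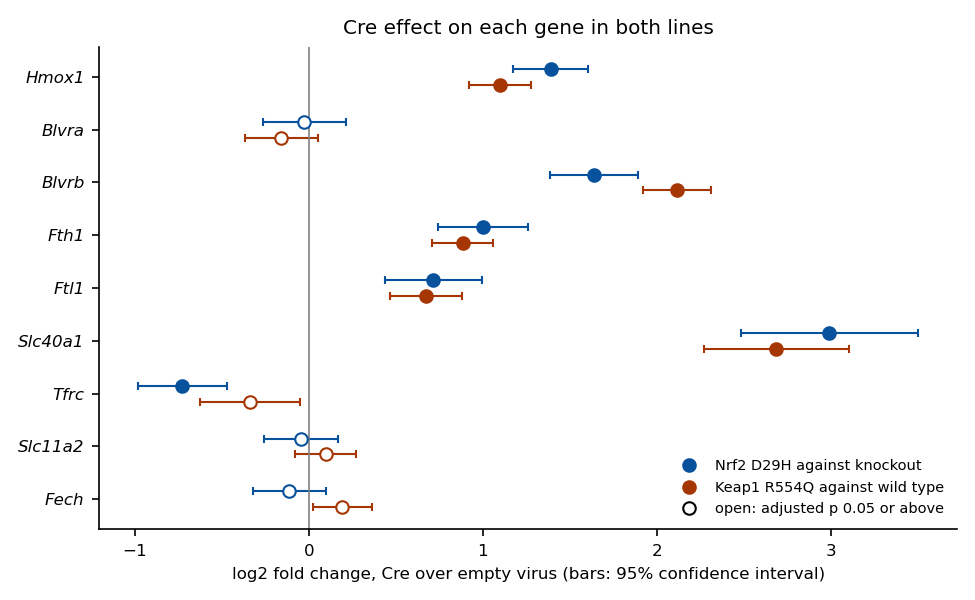
Log2 fold change of Cre over empty virus for the 9 genes tested in the Nrf2 line (blue) and the Keap1 line (brown), with 95% confidence intervals from edgeR; filled points have an adjusted p under 0.05. Slc40a1 lies farthest to the right at 2.99 and 2.69, and Tfrc is filled on the left in the Nrf2 line alone, a difference between lines that was not past the threshold.

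Whether Cre changed these genes by different amounts in the lines was tested over all 12 libraries as the log2 fold change in the Nrf2 line less that in the Keap1 line. None of the 9 genes was past the threshold in edgeR, where 0.027% of 14794 genes were called. At an unadjusted level, Blvrb (-0.47, 95% confidence interval -0.81 to -0.13, p 0.00866, adjusted p 0.321, edgeR), Fech (-0.30, p 0.0243, adjusted p 0.379) and Hmox1 (0.30, p 0.0288, adjusted p 0.396) had a p under 0.05, as did 11.3% of all genes tested. The Tfrc difference was -0.38, with a 95% confidence interval of -0.82 to 0.06 (adjusted p 0.516, edgeR), so the call in the Nrf2 line and its absence in the Keap1 line do not show that the lines differ. The differences for Fth1 (0.12, -0.18 to 0.43), Ftl1 (0.05, -0.27 to 0.37) and Slc40a1 (0.31, -0.39 to 1.02) had intervals that include 0. No gene of the 9 was called under any of the 19 alternatives, DESeq2 and limma included.

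The controls of the lines started at different levels. Hmox1 (log2 fold change -1.25, SE 0.09, adjusted p 1.74e-09, edgeR), Slc40a1 (-1.37, SE 0.29, adjusted p 0.00179), Ftl1 (-0.75, SE 0.11, adjusted p 3.06e-05), Fth1 (-0.73, SE 0.10, adjusted p 2.1e-05) and Blvrb (-0.46, SE 0.12, adjusted p 0.00841) were lower in labelled knockout than in wild type. Tfrc was higher (0.51, SE 0.15, adjusted p 0.0176, edgeR). These are 5 lower and 1 higher of 9, where 10.1% of 14794 genes were called lower and 9.58% higher. The Tfrc call was lost with DESeq2 (0.52, adjusted p 0.0845) and in the edgeR fits without labelled-knockout replicate 3 (0.37, adjusted p 0.0892), wild-type replicate 1 (0.46, adjusted p 0.0791) or wild-type replicate 3 (0.48, adjusted p 0.072).

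With Cre in both lines, 6 of the 9 genes were lower in D29H than in R554Q and 0 higher, where 13.4% of genes were called lower and 13.1% higher. The log2 fold changes were -1.05 for Slc40a1 (SE 0.17, adjusted p 9.61e-05, edgeR), -0.95 for Hmox1 (SE 0.09, adjusted p 8.32e-08) and -0.93 for Blvrb (SE 0.11, adjusted p 1.61e-06). Ftl1 differed by -0.70 (SE 0.11, adjusted p 6.79e-05, edgeR), Fth1 by -0.61 (SE 0.10, adjusted p 0.000166) and Fech by -0.35 (SE 0.09, adjusted p 0.00425). Tfrc was not called (0.13, adjusted p 0.546, edgeR), except without R554Q replicate 3 (0.40, adjusted p 0.0319). In the comparisons across lines, the allele, the line, the culture and the deposited table cannot be told apart.

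Lists of other heme and iron genes were counted against the shares of all genes, 3.47% higher and 1.28% lower in D29H and 3.77% and 2.4% in R554Q. Of 12 tested genes of heme synthesis and the transport of its intermediates, 1 was higher in D29H and 2 in R554Q, with list medians of -0.11 and -0.07. Ppox, protoporphyrinogen oxidase, rose in both (0.43, SE 0.11, adjusted p 0.0295, and 0.34, SE 0.10, adjusted p 0.0463, edgeR). Alas1, the enzyme of the first step, rose in R554Q (0.46, SE 0.09, adjusted p 0.00662, edgeR) from 37.4, 38.4 and 36.3 to 49.8, 46.3 and 57.5 CPM. In the Nrf2 line Alas1 had a log2 fold change of 0.25 that was not past the threshold (adjusted p 0.136, edgeR), and the difference between the lines was not called (-0.20, adjusted p 0.554).

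Of 11 tested genes of heme movement and breakdown, 1 was higher and 1 lower in either line in edgeR, with list medians of 0.09 and -0.07. DESeq2 called 3 in the Nrf2 line and 2 in the Keap1 line, and limma 2 in either. In edgeR 5 and 4 of the 11 had an unadjusted p under 0.05, where 22.9% and 24.2% of all genes tested did. Slc48a1, a heme transporter of endosomes and lysosomes, was at 71.3, 76.4 and 63.3 CPM in labelled knockout, 155.4, 141.9 and 137.7 in D29H, 128.8, 141.8 and 141.5 in wild type, and 301.3, 276.8 and 270.2 in R554Q. Its groups did not overlap within either line, and it rose by nearly the same log2 fold change in both, 1.04 (SE 0.10, adjusted p 3.2e-07, edgeR) and 1.05 (SE 0.08, adjusted p 1.27e-07). Abcg2, an exporter of porphyrins and drugs, fell in both by 0.40 on the log2 scale, close to the threshold (adjusted p 0.0403 and 0.0495, edgeR).

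Of 15 tested genes of iron uptake, export and storage beyond the 10, 0 were called in either line in edgeR, DESeq2 and limma, with medians of 0.12 and 0.17. At an unadjusted p under 0.05 in edgeR there were 4 and 7 of the 15, where 22.9% and 24.2% of all genes tested had such a p. Cp, ceruloplasmin, which oxidises exported iron, had log2 fold changes of 0.62 (adjusted p 0.322, edgeR) and 0.85 (adjusted p 0.0755), and Ncoa4, the ferritin autophagy receptor, of -0.23 (adjusted p 0.203) and -0.14 (adjusted p 0.445). Of 18 genes of iron sensing and iron-sulfur cluster assembly 0 were called in edgeR and limma in either line, and 0 and 1 in DESeq2, with medians of -0.06 and -0.10. At an unadjusted p under 0.05 in edgeR there were 4 of the 18 in either line, beside the same shares of all genes. Aco1 and Ireb2 encode the iron regulatory proteins. The log2 fold change of Aco1 was -0.20 in D29H and 0.06 in R554Q, and that of Ireb2 was 0.02 in either. For Bach1, the heme-sensing repressor of Hmox1, it was 0.13 and 0.17.

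**Figure D4:**
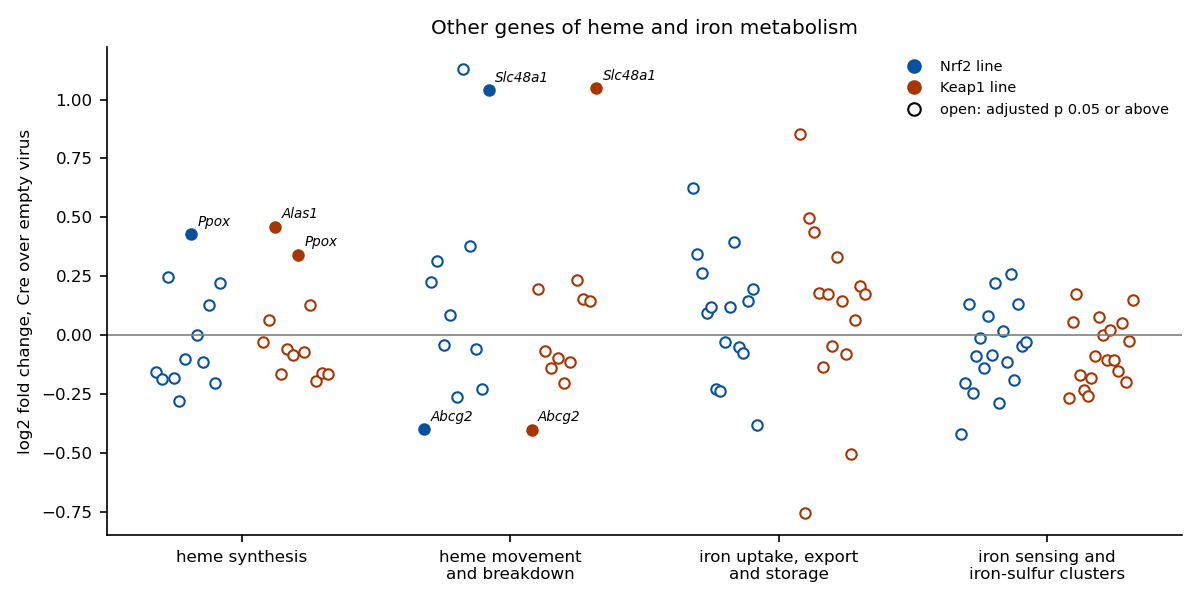
Log2 fold change of Cre over empty virus for the other heme and iron genes tested, by list, in the Nrf2 line (blue) and the Keap1 line (brown); filled and named points have an adjusted p under 0.05 in edgeR. Slc48a1 stands near 1.04 in both lines, Ppox, Alas1 and Abcg2 are the other named genes, and the lists on iron uptake and on iron sensing have 0 filled points.

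Hmox1, Slc40a1 and Tfrc were compared with all 14794 genes tested over the 12 libraries for likeness of profile, as the root-mean-square difference of centred log2 CPM (pseudocount 0.5 CPM). Nearest to Hmox1 were Slc48a1 (0.169), Esd (0.222) and Txnrd1 (0.229). Nearest to Slc40a1 were Gsta1 (0.308), Srxn1 (0.333) and Gsta4 (0.387), and nearest to Tfrc were Aqp1 (0.105), Stk17b (0.117) and P4ha1 (0.122).

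In the authors' deposited table the same 6 genes in the Nrf2 line and 5 in the Keap1 line had an adjusted p under 0.05. The authors' log2 fold changes were smaller, at 1.56 and 1.65 for Slc40a1 and 1.25 and 1.01 for Hmox1 in the authors' deposited table, and Abcb6 had no adjusted p there.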

How the data were processed

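The authors deposited, per the file headers, raw read counts per gene for 6 libraries in each of 2 tables, 1 for the Nrf2 groups and 1 for the Keap1 groups. The authors also deposited FPKM, which matched counts, listed gene length and column total to within 5e-10%, a signal (the mean normalised count of a group), and their own log2 fold changes and p-values. The submitters' processing notes name mm10, STAR and DESeq2; the counting tool, annotation and use of strand are not given in the sources used here.

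Counts were tested in R 4.3.3 with edgeR 4.0.16 (TMM, filterByExpr, quasi-likelihood test), with calls at a Benjamini-Hochberg adjusted p under 0.05 over all genes tested. Each line was fitted on its own 6 libraries, and comparisons across lines on all 12. Replicate pairs differed by more than sampling noise (chi-square per degree of freedom 4.95 to 25.1). The steps were tested on simulated data.

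Named genes are the 10 members, Nfe2l2, Keap1 and Nqo1, up to 4 called genes per pathway list and direction, and the 3 nearest profiles of Hmox1, Slc40a1 and Tfrc. Hmox2, Cp, Ncoa4, Aco1, Ireb2, Bach1 and the marker genes were named after their values were seen. The members and lists were chosen with earlier results of these data known. Alternatives were RLE and upper-quartile scaling, other count filters, DESeq2 1.42.0, limma 3.58.1, a fit of all 12 libraries for each line, a replicate block, and leaving out each library in turn. Keap1 was not called in either line (log2 fold changes 0.12 and 0.03, adjusted p 0.51 and 0.871, edgeR).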

Additional observations from a re-analysis of the deposited data

How the results depend on the processing

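Of 765 comparisons of a gene's value with its value under an alternative, 741 kept direction and side of the threshold, 5 lost a call, 3 gained one and 16 changed sign. The lost and gained calls are those of Ftl1 and Tfrc given above. All sign changes were in genes that were not called. In fits that each left out 1 library, the log2 fold change ran from -0.14 to 0.063 for Blvra and from -0.098 to 0.018 for Slc11a2 in D29H against labelled knockout, from -0.038 to 0.11 for Ftl1 in the difference of the Cre effects, and from -0.069 to 0.087 for Blvra between the controls. Between the Cre groups it ran from -0.071 to 0.043 for Slc11a2, which was also positive with upper-quartile scaling (0.015) and with a mean count of at least 50 (0.009), and from -0.0031 (without D29H replicate 1) to 0.40 for Tfrc. The cause was not tested. The number of the 9 genes called stayed within 1.5 times its value in every comparison and alternative run.

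Counts over all genes moved more. With no filter on low counts 1195 genes were called in the Nrf2 line, 1502 in the Keap1 line and 32 for the difference. Leaving out 1 library gave 82 (without D29H replicate 3) to 2192 (without D29H replicate 1) calls in the Nrf2 line, with 94 without D29H replicate 2 and 301 without labelled-knockout replicate 2. In the Keap1 line it gave 238 (without R554Q replicate 1) to 2872 (without R554Q replicate 3), with 241 to 430 without R554Q replicate 2 or any of the wild-type libraries, and for the difference 0 to 26 (without D29H replicate 1). The difference had 1 call with upper-quartile scaling, 1 with a mean count of at least 50, 1 with limma and 71 with DESeq2. With the replicate number as a block, the Keap1 line had 484 calls and the difference 2, and no call among the 9 genes changed. Same-numbered libraries did not deviate together (correlations -0.11 to -0.05 in the Nrf2 line and -0.27 to 0.05 in the Keap1 line). Differently numbered ones had correlations of -0.01 to 0.09 in the Nrf2 line and -0.26 to 0.3 in the Keap1 line. The replicate numbers thus showed no pairing, and whether the samples are paired in another order was not tested.

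Depth limits Abcb6, with 33 reads in either table, and Slc40a1 in labelled knockout, with 12 to 18 reads per library.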
